A study of Mus musculus with 6 samples.

Results

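The cytoplasmic ribosomal protein genes were examined in mouse liver RNA sequencing profiles from a study of celastrol in cholestasis. A gene was a member when its symbol had the form Rpl or Rps plus a number, with an optional a, x or y at the end, or was Rplp0, Rplp1, Rplp2 or Rpsa. This rule found 76 of the 18253 symbols listed in at least 1 library, of which 46 encode proteins of the large subunit and 30 proteins of the small subunit. It leaves out pseudogene names and kinases such as Rps6ka1, and it also misses some, such as Rps3a1 and Fau, which encode ribosomal proteins under other names, and Rack1, a scaffold protein of the small subunit.

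The livers came from C57BL/6 mice labelled as postnatal day 21. In the celastrol group (ANIT + celastrol, 3 libraries) the mice received alpha-naphthylisothiocyanate (ANIT), a bile duct toxicant used to induce cholestasis in rodents, together with celastrol, a triterpenoid from the thunder god vine. In the ANIT group (3 libraries) they received ANIT without celastrol. Both groups were treated for 5 days, and every mouse therefore received ANIT, with no untreated group to set either level against. Whether the 3 libraries of a group stand for 3 animals is not stated in the labels, so the p-values measure only the spread between these samples. The libraries held bulk liver RNA, in which fewer cells of a type and less RNA per cell cannot be told apart.

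Ribosomal proteins are made in nearly equal numbers because each ribosome holds 1 copy of most of them, and their messenger RNAs are among the most abundant in a cell. The large subunit forms peptide bonds and carries the exit tunnel, and the small subunit reads the messenger RNA. Many of these messenger RNAs begin with a run of pyrimidines at their 5′ end (the TOP motif), through which mTORC1 and Larp1 set their translation, and several of the genes carry small nucleolar RNA (snoRNA) genes in their introns. In liver, the transcription of ribosomal genes and the assembly of ribosomes rise during growth and regeneration, with Myc as a known activator.

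Values are FPKM, which are divided by gene length. The gene lengths used are not given, so levels of different genes can be set side by side only roughly. The FPKM of all symbols summed to 582233 to 601233 in the celastrol libraries and to 532840 to 546155 in the ANIT libraries. The 10 most abundant symbols took 33.2%, 20.7% and 31.5% of that sum in celastrol replicates 1, 2 and 3, and 20.3% to 21.9% in the ANIT libraries. The depth estimated from the steps between low values was 19.4 to 19.8 reads per FPKM and kilobase in the celastrol libraries and 18.9 to 19.8 in the ANIT libraries, and the least abundant member rested on an estimated 206 to 284 reads per kilobase in every library. All 76 members were listed in all 6 libraries and passed the filter of 1 FPKM in 3 libraries, as did 10593 symbols in all.

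All 76 members had a gene in GENCODE release M21 (mouse build mm10), all annotated as protein coding, on 19 chromosomes and with 4 on the X chromosome. They were short genes, with a median span of 3266 bases from first to last exon, against 22848 bases over the 9871 tested protein-coding symbols that matched the annotation. A snoRNA gene lay within 29 members (38.16%), with 56 snoRNA genes in all, against 1.78% of those tested protein-coding symbols. Sequences around the transcription start were available for 56 members from the RefSeq promoter table of GRCm38.p6, the assembly that mm10 is based on. In 13 of them (23.2%) the annotated start was a C followed by at least 4 pyrimidines, against 3.01% of the 27025 genes in that table. With the run allowed to begin anywhere from 15 bases before to 15 bases after the annotated start, 37 members (66.1%) had one, against 40.28% of all genes.

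The start windows of the 3 members with the lowest fold changes and of 3 of the 4 with fold changes nearest to 0 are shown because both ends of the range carry such a run at or near the start. Rpl22, the other member nearest to 0, is not shown. Each window runs 5′ to 3′ over 30 bases of the gene's strand, with the annotated start at base 16, and capitals mark the stretch of pyrimidines from the C nearest to that start that is followed by at least 4 of them. In all of these windows but that of Rps12, 1 or more further pyrimidines lie directly before the capitals.
Rpl12: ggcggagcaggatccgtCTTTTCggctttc
Rps12: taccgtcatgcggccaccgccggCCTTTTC
Rplp2: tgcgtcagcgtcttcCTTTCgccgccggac
Rps27: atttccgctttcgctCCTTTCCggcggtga
Rpl27a: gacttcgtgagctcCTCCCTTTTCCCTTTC
Rps15a: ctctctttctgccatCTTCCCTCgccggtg
In GRCm38.p6 these windows lie at chr2:32961697-32961726 on the plus strand for Rpl12, chr10:23787195-23787224 on the minus strand for Rps12 and chr7:141447636-141447665 on the plus strand for Rplp2. They lie at chr3:90213634-90213663 on the minus strand for Rps27, chr7:109519180-109519209 on the plus strand for Rpl27a and chr7:118116133-118116162 on the minus strand for Rps15a. The marked stretch begins at the annotated start in Rplp2, Rps27 and Rps15a, 1 base before it in Rpl27a, 2 bases after it in Rpl12 and 8 bases after it in Rps12.

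The promoter windows, from 250 bases before to 50 bases after the start, were searched on both strands for 4 further short motifs, and the matches of the first and the third of them can overlap by 3 bases. CCGGAAG, a core of ETS family binding motifs, was found in 23 of the 56 members (41.1%), against 9.93% of all genes. GGGCGG, the core of the Sp1 motif, was found in 34 members (60.7%), against 38.2%. AAGATGGCG, the core of the YY1 motif, was found in 3 members (5.4%), against 1.64%, and TATAAA in 6 members (10.7%), against 15.67%. These matches are descriptions of the letters in the windows and not of binding.

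The comparison asks how the liver transcripts of mice given ANIT with celastrol differed from those of mice given ANIT alone. Every one of the 76 members had a negative log2 fold change (celastrol over ANIT, on the log2(FPKM + 1) scale), whereas 72.1% of all tested genes did. The median over the members was -0.41, with quartiles of -0.47 and -0.34 and a range of -0.86 to -0.06. The median over all tested genes was -0.17, with quartiles of -0.38 and 0.03. The differences of the members were therefore small, all in 1 direction and close to one another, with a median standard error of 0.15 for a single member.

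Tested gene by gene with limma across all 10593 genes, 12 members fell (adjusted p under 0.05), or 15.8% of the 76, against 20.6% of all genes. The share of members that passed was thus not above that of all genes. None of the 76 rose, against 4.41% of all genes, and none rose at an unadjusted p under 0.05 either. At that unadjusted threshold 47 of the 76 members were lower, beside 4284 of all 10593 genes in either direction. Under an adjusted p of 0.10 there were 37 members, the 12 included, against 35.7% of all genes in either direction. Among the 12 that fell were Rpl12, Rpl13, Rpl14, Rplp0, Rplp1 and Rplp2 of the large subunit and Rps4x, Rps9, Rps12 and Rpsa of the small subunit. The groups did not overlap in 61 members (80.3%), with every celastrol library below every ANIT library, against 36.6% of all tested genes. That held for 38 of 46 large subunit and 23 of 30 small subunit members.

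**Figure D1:**
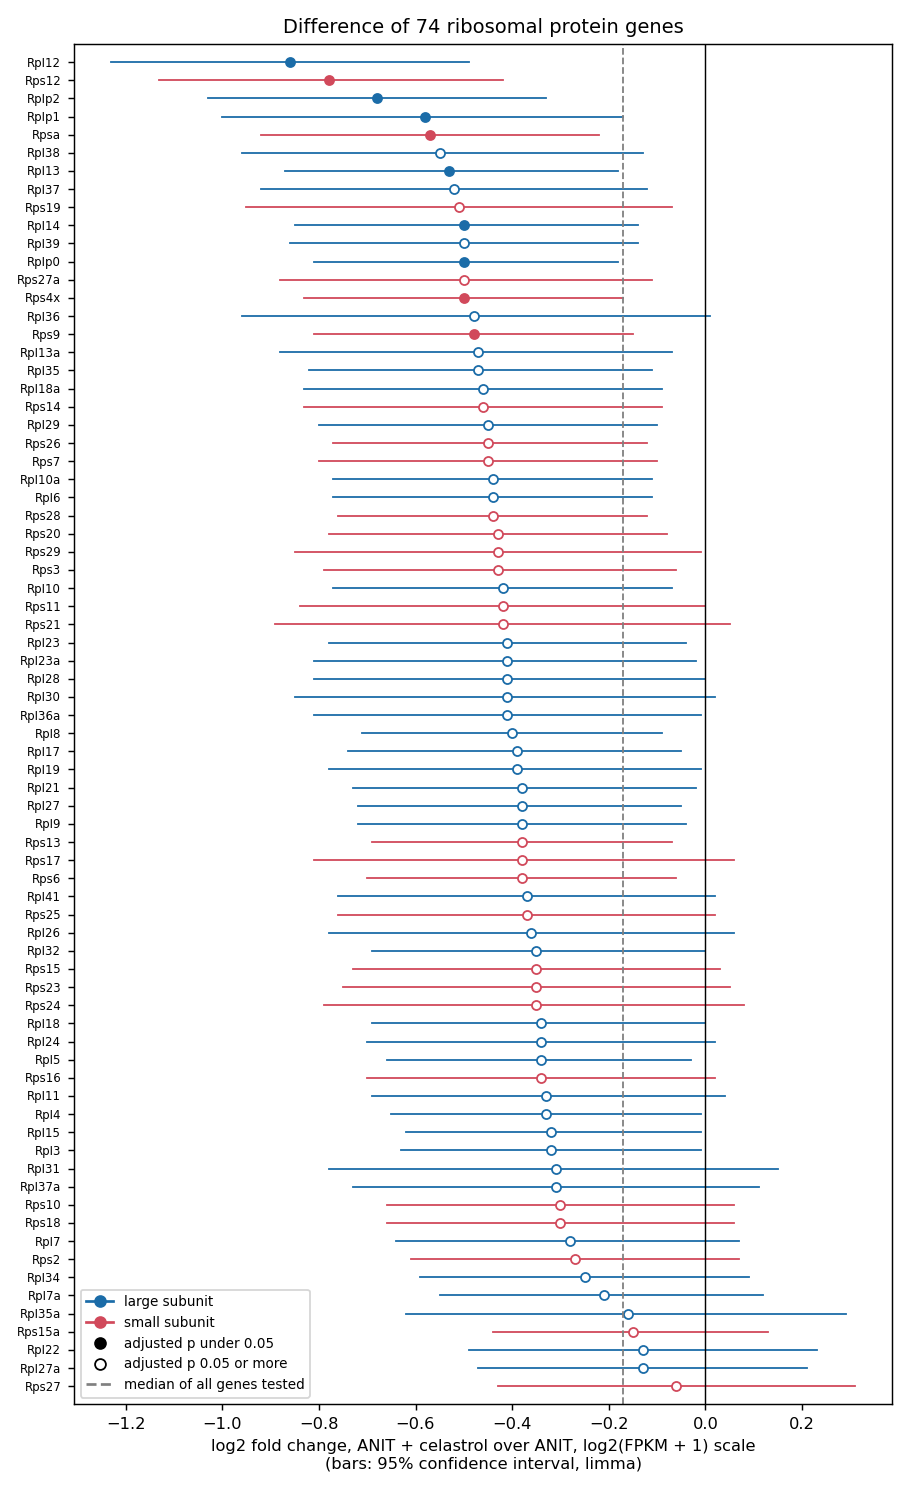
The log2 fold change of 74 ribosomal protein genes (celastrol over ANIT, log2(FPKM + 1) scale) with its 95% confidence interval from limma, ordered from the lowest at the top, with large subunit genes in blue and small subunit genes in red. Filled points are genes with adjusted p under 0.05, and the dashed line marks the median of all tested genes at -0.17; the points run from -0.86 for Rpl12 to -0.06 for Rps27.

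Summed over the family, the members had 18427.5, 21131.5 and 15390.0 FPKM in celastrol replicates 1, 2 and 3, against 24557.6, 24353.6 and 23624.6 FPKM in ANIT replicates 1, 2 and 3. The celastrol libraries were all below the ANIT libraries and spread more widely. The means were 18316.3 ± 2872.4 FPKM with celastrol and 24178.6 ± 491 FPKM with ANIT (SD, n = 3 each), so that the celastrol mean was 75.8% of the ANIT mean. As a share of the FPKM sum of the library, the members made up 3.07%, 3.6% and 2.64% in the celastrol libraries and 4.53%, 4.57% and 4.33% in the ANIT libraries.

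**Figure D2:**
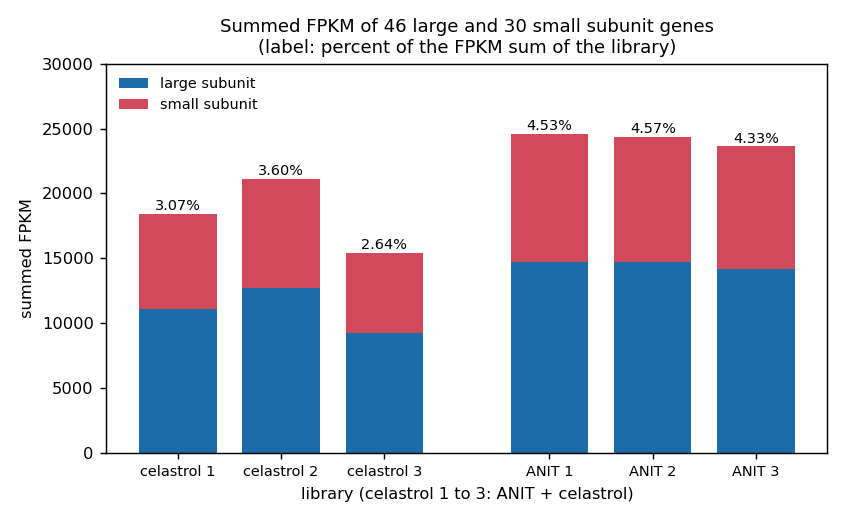
Summed FPKM of the 46 large subunit genes (blue) and the 30 small subunit genes (red) in each library, with the 3 ANIT + celastrol libraries on the left and the 3 ANIT libraries on the right, and the percent of the library's FPKM sum above each bar. The celastrol bars reach 15390.0 to 21131.5 FPKM and the ANIT bars 23624.6 to 24557.6 FPKM, with nearly the same division between the subunits in each.

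The 2 subunits had nearly the same differences. The median log2 fold change was -0.40 for the large subunit and -0.42 for the small subunit, a difference of 0.03. The summed FPKM of large subunit genes was 1.51, 1.5 and 1.5 times that of small subunit genes in the celastrol libraries and 1.49, 1.52 and 1.5 times in the ANIT libraries. The balance between the subunits therefore differed by no more between the groups than within the ANIT group. Levels within the subunits followed the same course, with a median member of the large subunit at 220 ± 31.9 FPKM with celastrol and 291 ± 8.8 FPKM with ANIT, and of the small subunit at 248 ± 45.5 and 333 ± 6.73 FPKM with celastrol and ANIT (SD, n = 3 each).

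The ribosomal stalk, the arm of the large subunit that recruits the elongation factors, held the members with some of the lowest fold changes. It is built on Rplp0 and Rpl12 and carries dimers of Rplp1 and Rplp2, and all 4 genes fell, with a median of -0.63. This grouping by position was made after the values were seen, and it gets no test. Rpl12 (chr2:32961559-32965345, plus strand), which holds the base of the stalk to the ribosomal RNA, had 233.94, 264.64 and 194.58 FPKM in celastrol replicates 1, 2 and 3, against 450.22, 422.47 and 382.47 FPKM in ANIT replicates 1, 2 and 3. The groups were far apart, and the highest celastrol library lay below the lowest ANIT library by more than either group's own range. Its log2 fold change was -0.86 (SE 0.16; adjusted p = 0.0092 by limma), the lowest of the family, and its mean with celastrol was 55.2% of its mean with ANIT.

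Rplp2 (chr7:141447370-141451585, plus strand), an acidic protein at the tip of the stalk, had 203.66, 210.04 and 158.28 FPKM in the celastrol libraries, against 312.11, 298.07 and 299.68 FPKM in the ANIT libraries. Its groups did not overlap, and its log2 fold change was -0.68 (SE 0.15; adjusted p = 0.017 by limma). Its dimer partner Rplp1 (chr9:61913284-61914542, minus strand) was one of the most abundant members, with 585.54, 692.55 and 460.47 FPKM in the celastrol libraries, against 841.49, 894.25 and 837.52 FPKM in the ANIT libraries. The log2 fold change of Rplp1 was -0.58 (SE 0.18; adjusted p = 0.049 by limma), close to the threshold. Rplp0 (chr5:115559467-115563727, plus strand), the scaffold of the stalk and a common reference gene in quantitative PCR, had 354.67, 366.52 and 306.63 FPKM in the celastrol libraries, against 496.8, 475.42 and 474.63 FPKM in the ANIT libraries. All 3 celastrol values of Rplp0 were lower than all 3 ANIT values, with a log2 fold change of -0.50 (SE 0.14; adjusted p = 0.035 by limma).

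Of the members on the head of the small subunit, Rps12 had the lowest fold change. Rps12 (chr10:23785183-23787275, minus strand) sits in the beak and carries 3 snoRNA genes within its span. It had 250.74, 280.32 and 206.76 FPKM in the celastrol libraries, against 417.5, 423.76 and 415.65 FPKM in the ANIT libraries. The ANIT libraries agreed within a few percent and the celastrol libraries were all well below them, with a log2 fold change of -0.78 (SE 0.15; adjusted p = 0.011 by limma).

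Of 5 members grouped by hand around the entry and exit of the messenger RNA, Rpsa fell and the others did not pass the threshold. The group is not a full list of the proteins at these sites. Rpsa (chr9:120127689-120132369, plus strand), also known as the laminin receptor precursor, had 236.04, 264 and 197.7 FPKM in the celastrol libraries, against 360.41, 338.98 and 328.68 FPKM in the ANIT libraries. The log2 fold change of Rpsa was -0.57 (SE 0.15; adjusted p = 0.031 by limma), and its groups stood apart. Rps3, a protein of the entry channel that also acts in DNA repair, averaged 97.2 ± 17.7 FPKM with celastrol and 130 ± 3.77 FPKM with ANIT (SD, n = 3 each; limma adjusted p = 0.081). Rps14, whose human counterpart is lost in the 5q deletion form of myelodysplastic syndrome, averaged 258 ± 43.6 FPKM with celastrol and 352 ± 14.1 FPKM with ANIT (SD, n = 3 each; limma adjusted p = 0.070). Their log2 fold changes were -0.43 and -0.46, near the median of the family, and the groups of neither gene overlapped. Rps26 and Rps28, named here after their values were seen, also missed the threshold of 0.05, with limma adjusted p-values of 0.051 and 0.054.

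Of the large subunit members, 3 beside the catalytic centre had a median of -0.40 and 3 of the exit tunnel a median of -0.39. Both lay near the family median of -0.41, although Rpl39 of the tunnel lay below the family's lower quartile of -0.47. Rpl10, which is loaded last onto the subunit beside the peptidyl transferase centre, had 663.78, 704.96 and 555.36 FPKM in the celastrol libraries, against 824.66, 878.24 and 863.76 FPKM in the ANIT libraries, with a log2 fold change of -0.42 (SE 0.15; adjusted p = 0.075 by limma). Rpl3, which reaches into the same centre, had 220.64, 218.9 and 185.21 FPKM in the celastrol libraries, against 269.95, 255.45 and 255.11 FPKM in the ANIT libraries (log2 fold change -0.32, limma adjusted p = 0.11). Neither passed the threshold, although the groups did not overlap in either. Rpl39, a very short protein in the wall of the exit tunnel, averaged 126 ± 21.3 FPKM with celastrol and 176 ± 6.0 FPKM with ANIT (SD, n = 3 each; log2 fold change -0.50, limma adjusted p = 0.052). Rpl5 and Rpl11, which carry the smallest ribosomal RNA into the large subunit and bind Mdm2 when ribosome assembly is disturbed, had log2 fold changes of -0.34 and -0.33 (limma adjusted p = 0.10 and 0.17). In both, the celastrol libraries were all below the ANIT libraries.

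Further members named for what they are known to do gave values of the same size. Rpl38, which in mouse embryos affects the patterning of the skeleton, averaged 197 ± 40.3 FPKM with celastrol and 285 ± 12.0 FPKM with ANIT (SD, n = 3 each; log2 fold change -0.55, limma adjusted p = 0.058). Rps19, which is mutated in human Diamond-Blackfan anaemia, averaged 139 ± 33.6 FPKM with celastrol and 194 ± 9.6 FPKM with ANIT (SD, n = 3 each; log2 fold change -0.51, limma adjusted p = 0.086). Rps6, the substrate of the S6 kinases, averaged 257 ± 29.1 FPKM with celastrol and 333 ± 4.34 FPKM with ANIT (SD, n = 3 each; log2 fold change -0.38, limma adjusted p = 0.081). None of these 3 passed the threshold, and in each the groups did not overlap. Rps27a, which is made as a fusion with ubiquitin, averaged 231 ± 41.7 FPKM with celastrol and 323 ± 13.1 FPKM with ANIT (SD, n = 3 each; log2 fold change -0.50, limma adjusted p = 0.063). Rps4x, encoded on the X chromosome, fell, with a mean of 215 ± 25.5 FPKM with celastrol and 302 ± 16.6 FPKM with ANIT (SD, n = 3 each; log2 fold change -0.50, limma adjusted p = 0.040). Rpl13, Rps9 and Rpl14, named for having passed, also fell, with log2 fold changes of -0.53, -0.48 and -0.50 and limma adjusted p-values of 0.037, 0.043 and 0.049.

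At the other end, 15 members had overlapping groups, and the 6 highest fold changes of the family were those of Rps27, Rpl27a, Rpl22, Rps15a, Rpl35a and Rpl7a. Rps27 (chr3:90212522-90213651, minus strand), a zinc finger protein of the small subunit, had 354.6, 379.47 and 276.61 FPKM in the celastrol libraries, against 343.14, 371.24 and 331.05 FPKM in the ANIT libraries. Both its highest and its lowest value were in celastrol libraries, and its log2 fold change of -0.06 had a 95% confidence interval of -0.43 to 0.31 (limma adjusted p = 0.81). Rpl27a had 202.77, 226.43 and 172.05 FPKM in the celastrol libraries, against 228.77, 218.44 and 205.79 FPKM in the ANIT libraries, with a log2 fold change of -0.13 (adjusted p = 0.55, limma). Rpl22, which binds RNA outside the ribosome and has a close paralog in Rpl22l1, had 49.11, 55.71 and 38.16 FPKM in the celastrol libraries, against 49.29, 54.0 and 51.7 FPKM in the ANIT libraries. Celastrol replicate 3 and, narrowly, celastrol replicate 1 lay below the ANIT libraries, and celastrol replicate 2 lay above them. The log2 fold change of Rpl22 was -0.13 (limma adjusted p = 0.56). Rpl35a, another gene mutated in human Diamond-Blackfan anaemia, and Rpl7a had log2 fold changes of -0.16 and -0.21 (limma adjusted p = 0.56 and 0.30).

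**Figure D3:**
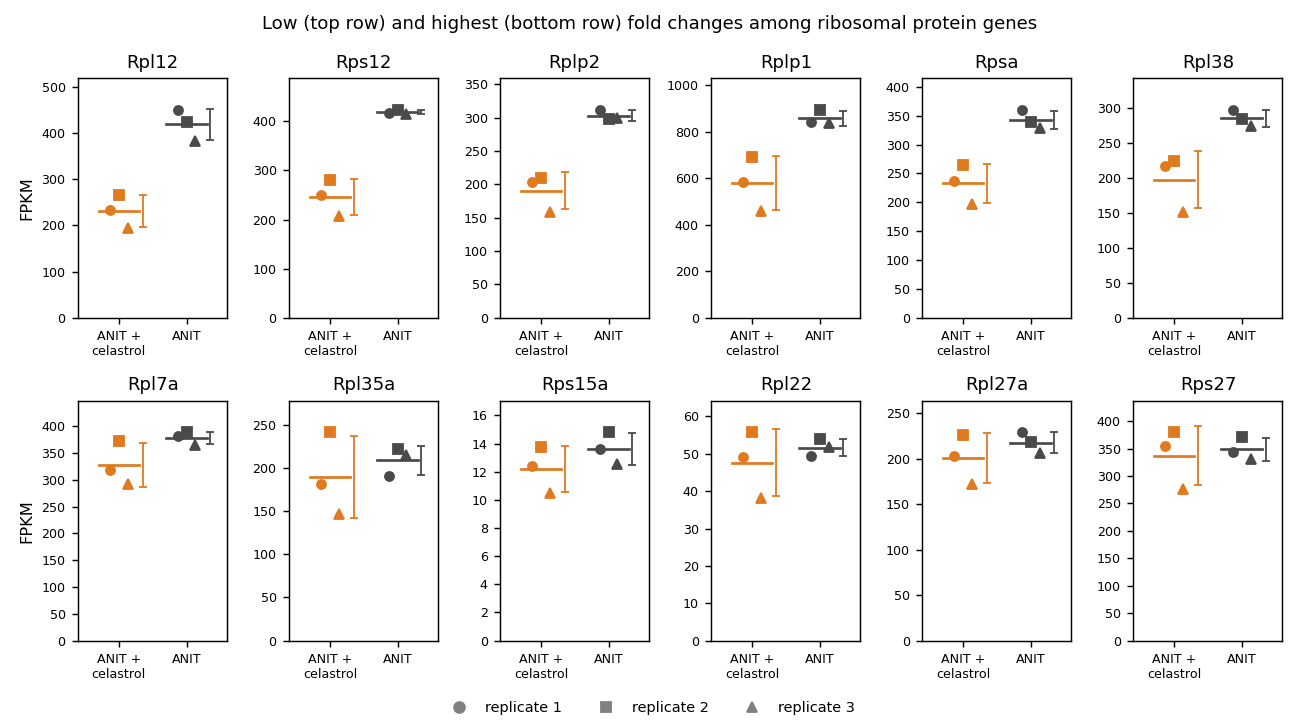
FPKM in each library for 6 members with low fold changes (top row) and the 6 with the highest (bottom row), with ANIT + celastrol in orange on the left of each panel and ANIT in grey on the right, the horizontal line at the mean and the bar at ± 1 SD (n = 3). In the top row the groups do not overlap, and celastrol replicate 3 (triangle) is the lowest of the celastrol libraries in all 12 panels; Rps27 runs from 276.61 to 379.47 FPKM with celastrol and from 331.05 to 371.24 FPKM with ANIT.

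The levels of the members spanned a wide range, from 10.46 to 13.73 FPKM for the lowest to 555.36 to 704.96 FPKM for the highest in the celastrol libraries, and from 12.52 to 14.79 FPKM to 841.49 to 894.25 FPKM in the ANIT libraries. Rpl10, Rplp1, Rpl41 and Rps2 had the highest mean FPKM and Rps15a, Rps20, Rpl22 and Rpl31 the lowest. Rpl41, the shortest of the ribosomal proteins, averaged 605 ± 95.6 FPKM with celastrol and 775 ± 55.5 FPKM with ANIT (SD, n = 3 each; log2 fold change -0.37, limma adjusted p = 0.14). Rps2, which supports accurate decoding, averaged 507 ± 58.7 FPKM with celastrol and 608 ± 25.3 FPKM with ANIT (SD, n = 3 each; log2 fold change -0.27, limma adjusted p = 0.20). Rps20, a protein of the head, averaged 41.2 ± 7.24 FPKM with celastrol and 55.3 ± 2.06 FPKM with ANIT (SD, n = 3 each; log2 fold change -0.43, limma adjusted p = 0.071). These differences lay on both sides of the family median at either end of the range of levels. Across the 76 members, the mean log2 level and the log2 fold change had a Pearson correlation of -0.22 and a Spearman correlation of -0.04, a description over genes that share the same libraries.

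Ribosomal protein genes have many processed pseudogenes, and where the authors' counting placed reads that match several copies is not given in the sources used here. GENCODE names 291 pseudogenes after members, of which 7 were listed in these libraries. Rps15a itself had 12.39, 13.73 and 10.46 FPKM in the celastrol libraries, against 13.61, 14.79 and 12.52 FPKM in the ANIT libraries, and lay far below every other member. Its copy Rps15a-ps4 had 20.27, 17.14 and 15.16 FPKM in the celastrol libraries and 14.97, 19.67 and 15.94 FPKM in the ANIT libraries. Rps15a-ps6 had 14.28, 21.7 and 11.85 FPKM in the celastrol libraries and 18.55, 23.22 and 22.55 FPKM in the ANIT libraries. Both copies were listed at levels above that of the gene, so the level of Rps15a is uncertain. Its exonic length in GENCODE was 6270 bases, against a median of 1805.5 bases over the members. The part of this length in its low FPKM was not tested. Added together, the log2 fold change of Rps15a with its copies was -0.19 (limma adjusted p = 0.40), against -0.15 (adjusted p = 0.38) for the gene alone.

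The same doubt touches 2 further members whose copies had a sizeable share of the FPKM. Rpl31, a protein at the rim of the exit tunnel, averaged 83.5 ± 21.0 FPKM with celastrol and 102 ± 9.45 FPKM with ANIT (SD, n = 3 each; log2 fold change -0.31, limma adjusted p = 0.28), and its copy Rpl31-ps12 averaged 95.4 ± 14.0 and 111 ± 3.91 FPKM with celastrol and ANIT. With the copy added, the log2 fold change of Rpl31 was -0.27 (limma adjusted p = 0.27). Rpl14-ps1 fell with its parent gene, averaging 53.7 ± 8.68 FPKM with celastrol and 82.3 ± 8.08 FPKM with ANIT (SD, n = 3 each; log2 fold change -0.62, limma adjusted p = 0.026). With all copies added to their parent genes, 12 members fell as before.

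The celastrol libraries stood in the same order in nearly all members. Celastrol replicate 3 was the lowest of the celastrol libraries in all 76 members, and celastrol replicate 2 was the highest in 74. Celastrol replicate 3 had 73.3% of the FPKM of celastrol replicate 2 in the median member, with a range of 58.4% to 86.2%. The ANIT libraries had no such order, with ANIT replicate 3 lowest in 44 members, ANIT replicate 1 in 18 and ANIT replicate 2 in 14. The median coefficient of variation of a member was 15.7% with celastrol and 4.0% with ANIT, whereas over all tested genes it was 13.4% with celastrol and 10.5% with ANIT. The members were thus among the more even genes of the ANIT group and not of the celastrol group.

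The number of members past the threshold depended on which library was left out. Without celastrol replicate 2, the library with the highest values among the celastrol libraries, 65 of 76 members fell, against 31.4% of all tested genes, and the median log2 fold change of the members was -0.52. Without celastrol replicate 1 or 3, 2 and 3 members fell, against 8.58% and 12.3% of all genes, and without ANIT replicate 1, 2 or 3, 2, 1 and 2 members fell, against 12.1%, 9.53% and 14.4%. The median without celastrol replicate 3 was -0.27, with 73 of 76 members below 0. Rpl12 passed in each of these 6 fits, with limma adjusted p-values of 0.0039 to 0.044, and Rps12 passed in 5 of them, with 0.0039 to 0.052. Rplp2 passed in 2 of the 6 fits, with limma adjusted p-values of 0.0085 to 0.066. The other 9 members that fell passed in 1 of the 6 fits, the one without celastrol replicate 2, with the highest adjusted p-values between 0.10 and 0.16. The filter on low values, which sets how many genes share the adjustment, mattered as well. With a mean of at least 5 FPKM required, 19 members fell, against 28.9% of the genes then tested, and with no filter 3 members fell (Rpl12, Rplp2 and Rps12), against 9.18%.

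The scaling of the libraries changed the size of the shift and not the direction of the family's median, except where the family itself set the scale. Median-ratio scaling moved the median of all tested genes to -0.02 and their calls to 1170 lower and 793 higher, against 2185 lower and 467 higher as deposited. Under it the median of the members was -0.23, 71 of 76 were below 0, and 5 fell (Rpl12, Rplp2, Rps12 and Rpsa among them), against 11.0% of all genes. The groups did not overlap in 51 members (67.1%), against 22.9% of all tested genes. The median member then had 254, 256 and 222 scaled FPKM in the celastrol libraries, against 291, 280 and 299 in the ANIT libraries. Celastrol replicate 3 was still the lowest celastrol library in 74 members, but celastrol replicate 2 was the highest in 47, against 74 as deposited. Rescaling to TPM, in which every library has the same sum, moved the median of all genes to -0.30 and that of the members to -0.53, and 54 members fell, against 36.0% of all genes. Quantile normalization gave medians of 0.01 for all genes and -0.18 for the members, and 9 members fell, against 8.99% of all genes, with 952 lower and 873 higher genes in all. With the 20 most abundant genes left out, 23 members fell, against 16.5% of all genes. The median of the members lay below that of all genes by 0.20 to 0.23 on the log2 scale in the data as deposited and under these 4 settings. This gap was less steady elsewhere. The member median minus that of all genes was -0.30 without celastrol replicate 2 and -0.13 without celastrol replicate 3. It was -0.18 with a mean of at least 5 FPKM required and -0.37 with no filter.

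**Figure D4:**
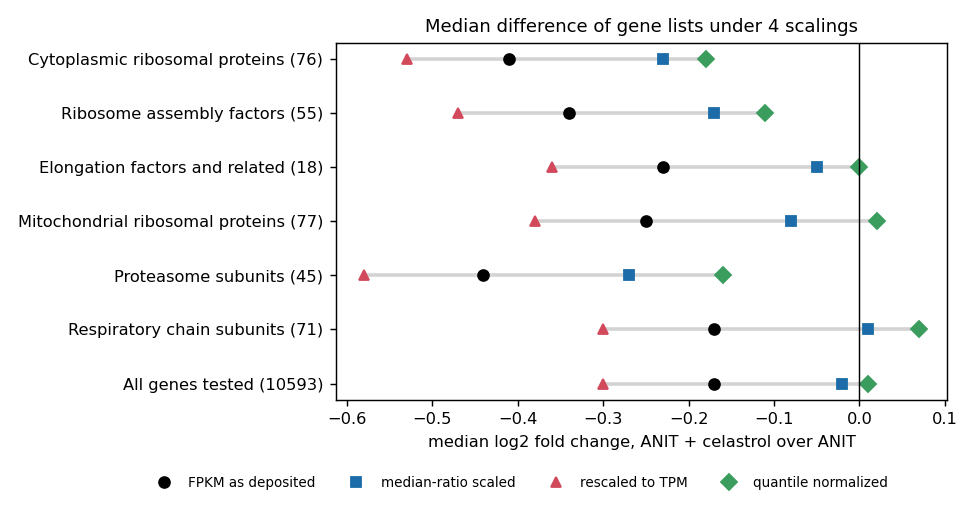
Median log2 fold change (celastrol over ANIT) of the cytoplasmic ribosomal proteins and of 5 other gene lists, with all tested genes in the bottom row and the number of tested genes in brackets, for FPKM as deposited (black circles), median-ratio scaled (blue squares), rescaled to TPM (red triangles) and quantile normalized (green diamonds). The ribosomal protein median runs from -0.53 to -0.18 and that of all genes from -0.30 to 0.01. The rows named proteasome subunits and respiratory chain subunits were matched by symbol and hold some assembly factors.

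Setting the libraries to a common median of the members asks which members departed from their own family. Under this scaling 67 of the 76 members lay within 0.2 of no difference, with an SD of 0.13 over the members on the log2 scale. Rpl12 was the only member to pass, with a log2 fold change of -0.43 relative to the family (limma adjusted p = 0.039), against 4.55% of all genes lower. Rps12 was next at -0.35 (adjusted p = 0.064), and Rps27 was highest at 0.37 (adjusted p = 0.062). Over all alternatives run, the adjusted p ran from 0.0039 to 0.044 for Rpl12, from 0.0039 to 0.064 for Rps12 and from 0.062 to 0.97 for Rps27. Rplp2, Rplp1 and Rplp0 had -0.25, -0.15 and -0.06 (adjusted p = 0.16, 0.42 and 0.73), so that Rpl12 alone of the stalk genes passed. Rpl12, Rplp2 and Rps12 passed in the data as deposited, under median-ratio scaling, TPM and quantile normalization, and with the 20 most abundant genes left out.

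Features of the genes that the member rule did not use were set beside the fold changes. The 29 members with a snoRNA gene inside had a median log2 fold change of -0.42 with 6 that fell, and the 47 without one had a median of -0.38 with 6 that fell. The 13 members whose annotated start is a TOP run had a median of -0.38, the same as the 43 members of the promoter table without one. The groups did not overlap in 7 of the 13 and in 37 of the 43, against 36.6% of all tested genes, and this was not tested. Members with the CCGGAAG motif and members without it also both had a median of -0.38. Across the 76 members, the log2 fold change had a Pearson correlation of 0.13 with exonic length and of 0.11 with gene span. Of the members with that motif 2 of 23 fell, and of those without it 7 of 33.

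Ribosomal protein genes outside the symbol rule had values of the same size. Fau, a fusion of a ubiquitin-like protein with a small subunit protein, and Rps3a1 had log2 fold changes of -0.34 and -0.27 (limma adjusted p = 0.15 and 0.21). Rack1 fell, with 227.87, 251.56 and 196.96 FPKM in the celastrol libraries, against 329.0, 325.64 and 324.1 FPKM in the ANIT libraries (log2 fold change -0.54; SE 0.14; adjusted p = 0.029 by limma, and 0.0085 to 0.52 over the alternatives). Among the 7 listed paralogs, Rps27l, Rpl22l1, Rpl36al and Rpl7l1 had log2 fold changes of -0.41, -0.38, -0.34 and -0.22 (limma adjusted p = 0.19, 0.12, 0.15 and 0.16), and Rps4l had 0.09 (adjusted p = 0.88). Rpl3l and Rpl39l, whose known sites of expression are muscle and testis, were below 1 FPKM in every library.

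Lists of genes that act with the ribosome were set beside the family, against the 20.6% of all genes that fell. Of 55 tested ribosome assembly factors, 25 fell and none rose, with a median of -0.34. Under median-ratio scaling 4 of the 55 fell, against 11.0% of all genes. Eif6, which keeps the large subunit from joining the small one too early, had 33.15, 28.58 and 28.08 FPKM in the celastrol libraries, against 66.68, 48.96 and 61.94 FPKM in the ANIT libraries, with a log2 fold change of -0.95 (SE 0.15; adjusted p = 0.0052 by limma). At the other end Heatr1 had 0.16 (adjusted p = 0.30). Of 18 tested translation factors and other genes with TOP transcripts, Eef1b2, a guanine nucleotide exchange factor of elongation, was the only one to fall (log2 fold change -0.50, limma adjusted p = 0.039, and 0.0098 to 0.67 over the alternatives). The median of the 18 was -0.23, and Snhg1 was highest at 0.16 (adjusted p = 0.63). Without celastrol replicate 2, 35 assembly factors and 4 of these 18 genes fell, against 31.4% of all genes. Without celastrol replicate 3, 12 assembly factors and none of the 18 did, against 12.3% of all genes.

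Of 20 tested genes of mTORC1 signalling and the Myc network, 7 fell and none rose, against 20.6% of all genes lower. Their median was -0.21, against -0.17 for all genes. The list holds both activators and inhibitors, and both were among the 7. Under median-ratio scaling the median was -0.05 and 4 fell, against 11.0% of all genes. Under quantile normalization 2 fell and 1 rose, against 8.99% of all genes lower. Without celastrol replicate 3, 4 fell, against 12.3% of all genes. Myc had 1.07, 1.6 and 1.7 FPKM in the celastrol libraries, against 6.41, 4.81 and 6.44 FPKM in the ANIT libraries, with a log2 fold change of -1.49 (SE 0.15; adjusted p = 0.0011 by limma). Mtor, the kinase of mTORC1, had 3.55, 4.0 and 3.46 FPKM in the celastrol libraries, against 7.7, 7.72 and 6.39 FPKM in the ANIT libraries, with a log2 fold change of -0.82 (SE 0.11; adjusted p = 0.0025 by limma). The inhibitors Tsc2 and Eif4ebp2 also fell, at -0.34 and -0.56 (limma adjusted p = 0.029 and 0.011). Over the alternatives their adjusted p ran from 0.0082 to 0.82 and from 0.0048 to 0.52. Larp1, which binds the TOP motif, had -0.05 (adjusted p = 0.78), and Deptor, an inhibitor of Mtor, was highest at 0.26 (adjusted p = 0.48). The part of these genes in the differences of the ribosomal protein genes was not tested. Of 6 tested kinases named for the ribosome, 3 fell, with Rps6kc1 lowest at -0.71 (adjusted p = 0.011, and 0.0044 to 0.11 over the alternatives) and Rps6kb2 highest at -0.16 (adjusted p = 0.27). Rps6kb1, the main S6 kinase, had 5.69, 6.21 and 5.98 FPKM in the celastrol libraries and 6.63, 7.96 and 6.14 FPKM in the ANIT libraries, with groups that overlapped.

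Other families of abundant housekeeping genes served to show how far such a shift was shared. Of all genes 20.6% fell, with a median of -0.17 as deposited and -0.02 after median-ratio scaling. The proteasome list was matched by symbol and holds assembly factors, such as Psmd9, beside subunits. Of its 45 tested genes 22 fell, with a median of -0.44 as deposited and -0.27 after median-ratio scaling. They ranged from Psmb5 at -0.89 (limma adjusted p = 0.0062) to Psmd9 at 0.36 (adjusted p = 0.094). Under median-ratio scaling Psmd9 passed as higher (adjusted p = 0.024), and over the alternatives its adjusted p ran from 0.0098 to 0.21. Of 77 tested mitochondrial ribosomal proteins 14 fell, with a median of -0.25 as deposited and -0.08 after scaling, from Mrpl18 at -0.95 (adjusted p = 0.0088) to Mrpl15 at 0.11 (adjusted p = 0.52). The respiratory chain list was matched by symbol as well and holds Atp5sl, an assembly factor. Of its 71 tested genes 2 fell, with a median of -0.17 as deposited and 0.01 after scaling. They ran from Ndufa8 at -0.64 (adjusted p = 0.028, and 0.0049 to 0.24 over the alternatives) to Atp5sl at 0.39 (adjusted p = 0.34). Without celastrol replicate 2, 33 genes of the proteasome list, 36 mitochondrial ribosomal proteins and 34 genes of the respiratory chain list fell, against 31.4% of all genes. Without celastrol replicate 3 the numbers that fell were 9, 7 and 0, against 12.3% of all genes. Rescaled to TPM, they were 34, 32 and 11, against 36.0% of all genes. The median of the cytoplasmic ribosomal proteins lay below those of both mitochondrial families and near that of the proteasome, and these differences between lists were not tested.

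Of the markers chosen for the liver's cell types, all 10 hepatocyte genes were listed in every library, with sums of 22797.3 to 32855.8 FPKM in the celastrol libraries and 46278.3 to 58571.3 FPKM in the ANIT libraries. Among them 2 rose and 1 fell, from Cyp2e1 at 1.63 to Alb at -2.27 (limma adjusted p = 0.0054 and 0.0024). Alb made up most of the difference in the sums, with 5341.18 to 10051.4 FPKM with celastrol and 29351.1 to 38655.85 FPKM with ANIT. The median log2 fold change of the 10 was -0.10, with 6 below 0. Neutrophil and monocyte markers summed to 69.2 to 91.8 FPKM with celastrol and 35.3 to 59.7 FPKM with ANIT. Of 6 tested, 4 rose, against 4.41% of all genes, and the 6 ran from S100a8 at 1.17 (limma adjusted p = 0.031) to Csf3r at 0.10. Of these 6, 2 rose under TPM and 0 without celastrol replicate 3, against 389 and 390 of all 10593 genes. Endothelial markers summed to 43.4 to 80.7 and 31.9 to 51.6 FPKM (1 of 7 rose), Kupffer cell markers to 151 to 223 and 85.6 to 213 FPKM (0 of 8), stellate cell markers to 14.6 to 51.0 and 18.4 to 34.7 FPKM (0 of 4) and cholangiocyte markers to 21.5 to 50.5 and 44.5 to 52.8 FPKM with celastrol and ANIT. In the last list Krt19 fell, below 1 FPKM in the celastrol libraries, and Krt7 and Epcam were below 1 FPKM throughout. The 10 lymphocyte markers were all below 1 FPKM in every library. The part of these markers in the differences of the ribosomal protein genes was not tested.

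Erythroid markers followed the order of the ribosomal protein genes among the celastrol libraries, but they were not alone in this. The sums of the proteasome list, both mitochondrial families and endothelial markers had the same order. Those of hepatocyte, Kupffer cell, neutrophil and monocyte, and stellate cell markers did not. The library factors of median-ratio scaling had it too, with 0.92, 1.04 and 0.88 in celastrol replicates 1, 2 and 3. The erythroid markers summed to 67.8, 226 and 49.0 FPKM in celastrol replicates 1, 2 and 3, highest in replicate 2 and lowest in replicate 3. In ANIT replicates 1, 2 and 3 they summed to 252, 428 and 229 FPKM. The globin gene Hba-a2 was lowest, with a log2 fold change of -2.35, and Alas2 was highest at 0.19 (limma adjusted p = 0.10 and 0.77). None of the 5 tested markers passed. Without celastrol replicate 2, 4 of them fell, against 31.4% of all genes. Of the 8 proliferation markers, which summed to 15.2 to 22.5 FPKM with celastrol and 18.4 to 20.8 FPKM with ANIT, only Pcna passed the filter, with a log2 fold change of -0.16 (adjusted p = 0.44). The part of these markers in the differences of the ribosomal protein genes was not tested either.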

How the data were processed

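The 6 libraries (3 ANIT + celastrol, 3 ANIT) came from total RNA of frozen liver and were grouped and numbered by their titles. The authors deposited FPKM (fragments scaled to gene length and library size) by gene symbol in a table for each library, per the file headers. HISAT2, featureCounts and mm10 are named, without versions, in the submitters' processing notes. How reads with several matches were handled, which strand was counted and which gene lengths were used is not given in the sources used here. Without a strand setting, reads of a gene and of an antisense or nested gene cannot be told apart.

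Symbols missing from a library counted as 0 there, and 23 to 24 rows per library with names turned into dates could not be traced to genes, 2 repeated names among them being left out. Symbols at 1 FPKM or more in 3 libraries entered a limma 3.58.1 fit (R 4.3.3) of log2(FPKM + 1), with trend, robust variance and group as the only term, with Benjamini-Hochberg adjustment over all 10593 and a threshold of 0.05. Fold changes are on that scale. The fit was also run on simulated data with noise drawn separately for each gene. Such data cannot bear on shifts that members share within a library. Depth was estimated from the steps between values of 0.1 to 1 FPKM, because FPKM give no totals, and no count model was run. The smallest exact permutation p for 3 against 3 libraries is 0.1, so single values were not tested this way. Of the symbols, 17576 matched GENCODE release M21. Sequences came from RefSeq.

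The members and all gene lists were chosen with earlier results of these data known. Members named are the 6 highest and 6 lowest fold changes, the 4 highest and 4 lowest mean FPKM, and 17 chosen by role (Rplp0, Rplp1, Rplp2, Rpsa, Rpl3, Rpl5, Rpl11, Rpl10, Rpl38, Rpl39, Rpl41, Rps3, Rps6, Rps14, Rps19, Rps27a and Rps4x). Of other lists, the tested genes with the highest and the lowest fold change are named, and Fau, Rack1 and the paralogs. Some genes of these rules are not reported here. All other genes named, and the grouping by position in the ribosome, were chosen after values were seen. Alternatives were median-ratio, TPM, quantile and member-median scaling, the 20 most abundant genes left out, a pseudocount of 0.1, no filter or a mean of 5 FPKM, the replicate number as a block, non-robust variance, and each library left out. Adding copies to their parent genes and the wider window for the TOP run were chosen after seeing the data.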

Additional observations from a re-analysis of the deposited data

How the results depend on the processing

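The count of 12 members that fell was 5 with median-ratio scaling, 54 with TPM, 23 with the 20 most abundant genes left out, 1 with libraries set to the member median, 3 with no filter, 19 with a mean of at least 5 FPKM and 1 to 65 with 1 library left out. No member rose under any of these. Over all genes, the 2185 that fell became 1170 with median-ratio scaling, 3813 with TPM, 952 with quantile normalization, 482 with member-median scaling and 909 to 3326 with 1 library left out, and the 467 that rose became 793 with median-ratio scaling, 873 with quantile normalization, 1726 with member-median scaling and 218 to 515 with 1 library left out. The median of the members, -0.41, was -0.18 with quantile normalization and 0.02 with member-median scaling, which sets it near 0 by construction. For the other shifts the cause was not tested.

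Some members near 0 turned positive. With median-ratio scaling Rpl22 had 0.05, Rpl27a 0.05, Rpl35a 0.02, Rps15a 0.01 and Rps27 0.12, and with quantile normalization Rpl22 had 0.16, Rpl27a 0.10, Rpl35a 0.04, Rps15a 0.09 and Rps27 0.17. Leaving out the 20 most abundant genes gave Rps27 a value of 0.01. With 1 library left out, Rpl22 ranged from -0.25 to 0.02, Rpl35a from -0.35 to 0.01 and Rps27 from -0.15 to 0.08, lowest without celastrol replicate 2 and highest without celastrol replicate 3. Relative to the member median, Rpl10 had 0.01, Rps6 0.05, Rpl41 0.07, Rpl5 0.09, Rpl3 0.11, Rpl11 0.11, Rpl31 0.11, Rps2 0.16, Rpl7a 0.22, Rps15a 0.25, Rpl35a 0.27, Rpl22 0.29, Rpl27a 0.30 and Rps27 0.37.

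With the replicate number as a block, 5 members fell (Rpl12, Rplp2, Rps12 and Rpsa among them), and 2106 genes (19.9%) fell and 479 rose in all. Deviations of libraries with the same number had correlations of 0.15, 0.23 and -0.09, celastrol replicate 3 correlated best with ANIT replicate 1, and the libraries share only a number. With 3 libraries a group, leaving out 1 library changed the call of most members that fell, though not that of Rpl12, and FPKM carry no counting error. The sum of the members in the celastrol group as a percent of the ANIT group, 75.8%, was 85.4% with median-ratio scaling, 69.3% with TPM and 69.9% to 81.8% with 1 library left out.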
